A study of Mus musculus with 2 samples.

Results

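The dystroglycan glycosylation enzymes described here are Pomt1, Pomt2, Pomgnt1, Pomgnt2, B4gat1, Gmppb and Pomk, 7 genes out of the 55536 annotated genes in the tables and the 22028 that are protein-coding. They were chosen by name as enzymes of one pathway, and each symbol was matched to its gene identifier through the transcript names in the deposited tables. The libraries were made from total RNA of the gastrocnemius, the large calf muscle, of B6CASTF1/J mice, a hybrid of a C57BL/6 and a CAST strain. Both mice were males aged 10 days, no treatment or engineered allele is labelled, and each library started from 300 ng of RNA with ERCC spike-in RNAs added. The 2 libraries, 1 per mouse, form a single group with no contrast. The mice have different animal numbers but 1 donor code in the labels, so how far they are independent animals rests on the animal numbers.

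Dystroglycan links the cytoskeleton of the muscle fibre to laminin outside it, and its outer subunit binds laminin only after a long sugar chain, matriglycan, has been built on mannose residues. The protein O-mannosyltransferases Pomt1 and Pomt2 act together to place the first mannose in the endoplasmic reticulum, the N-acetylglucosaminyltransferases Pomgnt1 and Pomgnt2 extend it in different ways, and Pomk phosphorylates the mannose on the branch that Pomgnt2 starts. B4gat1 adds the glucuronic acid on which matriglycan is then built, while Gmppb makes GDP-mannose, the activated sugar from which the mannose donor is formed. Inherited loss of any of these enzymes is known to cause muscular dystrophy, in severe forms with brain and eye defects.

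Pomgnt1 is the member with the highest level, and its transcripts start at several places, so the 250 bases before 2 of its start sites are shown. Both are given as RefSeq lists them on GRCm38.p6, on the plus strand of chromosome 4, and capitals mark the GC box, GGGCGG on either strand. The first window, chr4:116150268-116150517, lies before the start of the transcript Pomgnt1-203. The second, chr4:116151181-116151430, lies before the start of Pomgnt1-201.
Window before Pomgnt1-203: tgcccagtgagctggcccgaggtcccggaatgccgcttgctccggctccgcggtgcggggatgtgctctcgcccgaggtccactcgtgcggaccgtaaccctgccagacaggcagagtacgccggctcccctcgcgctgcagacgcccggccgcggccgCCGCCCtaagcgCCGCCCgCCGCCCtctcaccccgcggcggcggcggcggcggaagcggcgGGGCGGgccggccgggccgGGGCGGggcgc
Window before Pomgnt1-201: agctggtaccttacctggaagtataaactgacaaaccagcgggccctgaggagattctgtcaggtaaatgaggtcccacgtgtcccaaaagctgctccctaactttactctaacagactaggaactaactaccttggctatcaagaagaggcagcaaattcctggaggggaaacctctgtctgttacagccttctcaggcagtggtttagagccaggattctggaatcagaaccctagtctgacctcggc
The first window held 5 GC boxes, 41 CG dinucleotides and 80.0% G or C. The second held no GC box, 3 CG dinucleotides and 49.6% G or C. Over all 32851 RefSeq promoter windows of this length, the median was 52.4% G or C and 32.7% held a GC box. Of the 6 windows listed for the enzymes, 2 held a GC box, and those of B4gat1, Pomt1 and Pomgnt2 held none. Any link between GC boxes and level was not tested. The TATA box letters, TATAAA on either strand, occurred once in the second window and not in the first, and 12.4% of all windows held them. In the gene tables Pomgnt1-203 carried 20.5 and 20.7 TPM (a length-scaled measure of transcript abundance) in replicates 1 and 2, and Pomgnt1-201 was listed at 0 in both.

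A further 3 sequences show a piece by which 1 alternative transcript each of Pomt2, Gmppb and Pomgnt1 differs from the leading one. They were cut from the GENCODE M21 transcript sequences on mm10, read in the direction of the gene, with capitals for the intron or exon and lower case for 15 bases of the neighbouring exons. The Pomt2 intron is chr12:87111443-87111523 on the minus strand, 81 bases that Pomt2-204 keeps. The Gmppb intron is chr9:108050977-108051059 on the plus strand, 83 bases that Gmppb-203 keeps. The Pomgnt1 exon is chr4:116153842-116153940 on the plus strand, 99 coding bases that Pomgnt1-202 lacks.
Pomt2 retained intron: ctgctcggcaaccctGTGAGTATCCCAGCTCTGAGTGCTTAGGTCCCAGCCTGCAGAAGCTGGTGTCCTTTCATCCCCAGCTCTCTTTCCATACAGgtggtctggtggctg
Gmppb retained intron: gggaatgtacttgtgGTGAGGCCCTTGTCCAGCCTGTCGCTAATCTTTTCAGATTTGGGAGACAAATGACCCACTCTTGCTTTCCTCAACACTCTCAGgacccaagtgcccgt
Pomgnt1 skipped exon: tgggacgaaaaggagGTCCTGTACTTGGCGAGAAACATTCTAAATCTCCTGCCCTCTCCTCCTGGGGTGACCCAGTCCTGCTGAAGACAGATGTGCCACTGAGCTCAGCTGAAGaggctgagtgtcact
Both introns begin with GT and end with AG. In Pomt2-204 the annotated reading frame runs 24 bases into the intron and meets the stop codon TAG there. The length of the Gmppb intron is not a multiple of 3, whereas the skipped Pomgnt1 exon is, at 99 bases.

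All 7 enzymes were detected. Each had 1 TPM or more in both libraries, against 51.4% of protein-coding genes (11322 of 22028). TPM gives each gene's part of all transcripts in a library, scaled by length, so that genes can be compared with each other. Replicate 1 had a median over the 7 of 3.64 TPM and replicate 2 of 4.45 TPM. For protein-coding genes at 1 TPM or more in both libraries the medians were 8.67 and 8.31 TPM. The enzymes summed to 51.0 and 49.6 TPM (50.3 ± 0.94 SD, n = 2). Dag1, the gene of their substrate dystroglycan, stood at 122 and 119 TPM in replicates 1 and 2 (120.2 ± 2.02 SD, n = 2), which was 2.39 times the sum of the 7 enzymes in each library.

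**Figure D1:**
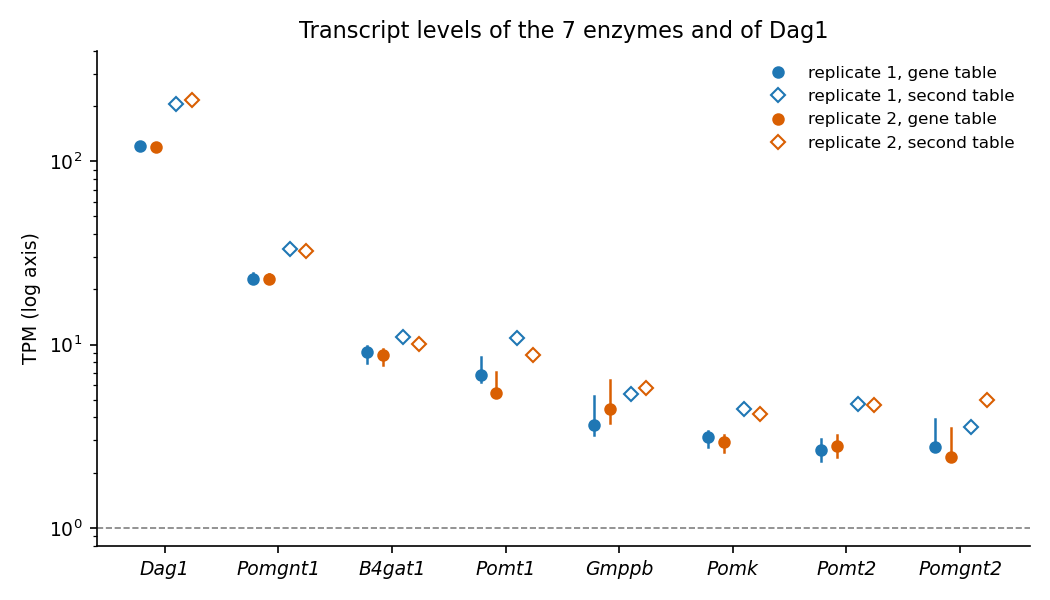
TPM on a log axis for Dag1 and the 7 enzymes, with filled points for the gene tables, open diamonds for the second transcript tables summed per gene, lines for the credible intervals deposited with the gene tables, and a dashed line at 1 TPM. Pomgnt1 stands above the other enzymes at 22.8 ± 0.057 TPM (SD, n = 2), and 4 of the 7 lie under 5 TPM in both libraries in the gene tables.

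The expected counts behind these levels ran from 179 for Pomgnt2 in replicate 2 to 1879 for Pomgnt1 in replicate 2. The gene tables held 38874862 and 38160786 expected counts in all. Of the 38586603 and 37880094 counts on mouse genes, without the spike-ins, the 7 enzymes took 0.0104% and 0.0107%. Muscle fibre markers such as Acta1 and Ckm were detected 7 of 7 (summed 74703 and 75820 TPM), as were fibroblast (2441 and 2206 TPM), endothelial (133 and 140 TPM), mural (165 and 162 TPM), macrophage (32.8 and 29.6 TPM), Schwann cell (335 and 273 TPM) and satellite cell markers (30.3 and 29.9 TPM), each 4 of 4, and adipocyte markers 3 of 3 (15.4 and 12.4 TPM). Neuron markers reached 1 TPM in both libraries in 0 of 3 (1.04 and 0.06 TPM). In bulk tissue a level cannot be assigned to one of these cell types, and fewer cells of a type cannot be told apart from less RNA per cell. With 1 group of 2 libraries no test of a difference is possible, since an exact sign-flip test cannot give a two-sided p below 0.5, so the spread below is described and not tested.

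Gmppb supplies GDP-mannose and lies on chromosome 9 (chr9:108049242-108052801, plus strand, mm10), 152 kb from Dag1. Its level was 3.64 TPM in the first replicate and 4.45 TPM in the second (4.05 ± 0.57 SD, n = 2), from 225 and 245 expected counts. Replicate 2 was the higher of the pair. The scaled counts differed by 0.19 on the log2 scale, with an interval of counting error from -0.07 to 0.46, and the TPM by 0.29. Part of the larger TPM gap lay in Gmppb-205, a model of 163 bases listed with 1 expected count in replicate 2. That single count was converted to 0.48 TPM, or 10.8% of the gene. Without that model Gmppb stood at 3.64 and 3.97 TPM.

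No single transcript led Gmppb. Gmppb-201 held 33.3% and 32.7% of its TPM in replicates 1 and 2, Gmppb-202 held 34.7% and 30.9%, and Gmppb-203 held 32.0% and 25.6%. Gmppb-201 and Gmppb-202 have the same 1080 coding bases, and together they held 68.0% and 63.6%. Gmppb-203 has no annotated reading frame and keeps the 83-base intron shown above. It also keeps the first intron (chr9:108049421-108049511), which lies before the start codon, and Gmppb-202 keeps that one too. Transcripts keeping the first intron held 66.7% and 56.5% of Gmppb. In the second transcript tables, which the authors made from the reads by another route, the share of Gmppb-203 was 27.7% and 28.9% and that of Gmppb-201 45.4% and 42.6%.

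**Figure D2:**
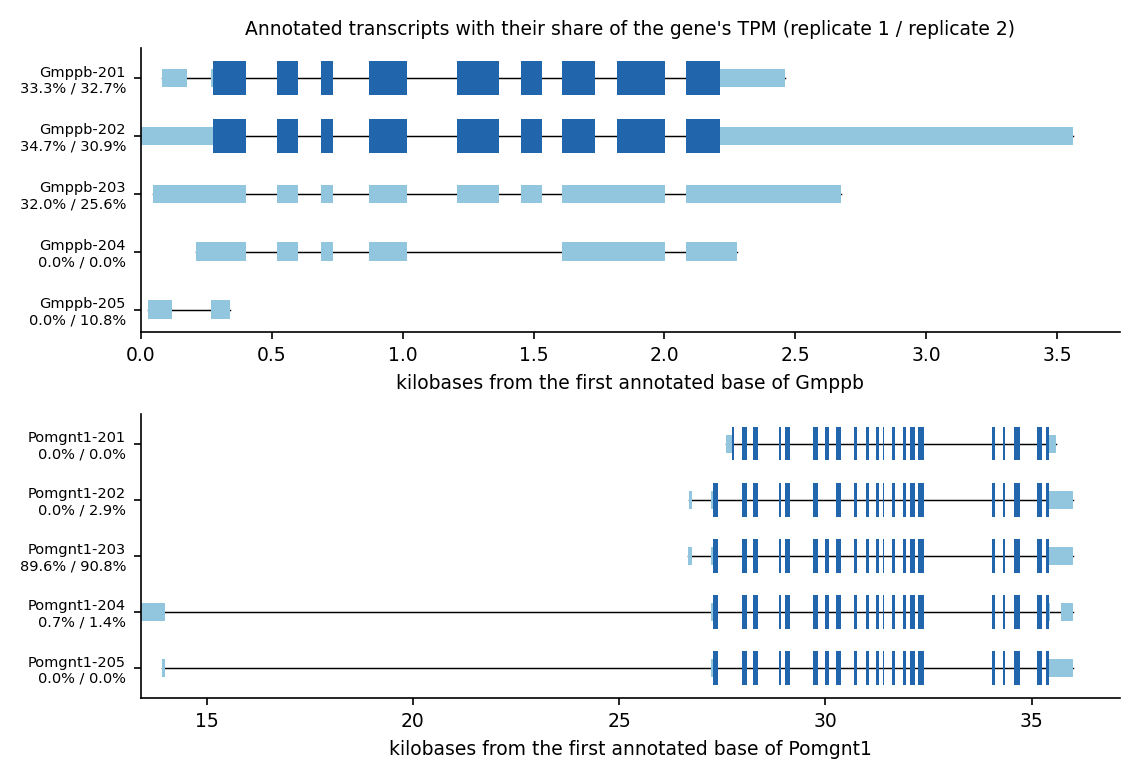
Annotated transcripts of Gmppb (upper panel) and the protein-coding transcripts of Pomgnt1 with a complete reading frame (lower panel), drawn to scale in kilobases from the first annotated base of each gene, with coding bases as tall dark blocks, other exon bases as low pale blocks and introns as lines. Labels give each transcript's share of its gene's TPM in replicate 1 and replicate 2: 3 Gmppb transcripts hold between 25.6% and 34.7% each, while Pomgnt1-203 holds 89.6% and 90.8%.

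Of the 7 enzymes, 1 had 20% or more of its TPM on transcripts annotated as intron-retaining in both libraries, and that was Gmppb. The same held for 8.17% of protein-coding nuclear genes that averaged at least 100 expected counts (895 of 10954). Only 6665 of those genes and 4 of the 7 enzymes have a transcript annotated as intron-retaining, and the others could not be counted. A count of 1 in 7 does not set the enzymes apart. The count goes by the annotated class alone. Pomt2-204 keeps an intron but has another class, and it held 24.45% and 16.36% of Pomt2 in replicates 1 and 2. Transcripts of Pomt2 annotated as intron-retaining held 10.98% and 10.87%. With Pomt2-204 added to them, Pomt2 would also pass 20% in both libraries. The other protein-coding genes were not counted in that way. The 20% threshold was chosen after the values were seen. Gmppb shares 1268 bases of its end with Rnf123, a ubiquitin ligase gene on the opposite strand at 65.1 and 64.1 TPM. Strand use in the counting was not given in the sources used here. Values that rest on reads in such shared stretches, here and in the overlaps below, are therefore uncertain.

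Pomt1, a subunit of the O-mannosyltransferase (chr2:32236590-32255005, plus strand), stood at 6.80 TPM in replicate 1 against 5.41 TPM in replicate 2 (6.11 ± 0.98 SD, n = 2). Its partner Pomt2 (chr12:87106861-87147968, minus strand) had 2.66 and 2.79 TPM (2.73 ± 0.092 SD, n = 2). Pomt1 was above Pomt2 in both libraries, although the enzyme is a complex of both proteins.

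In the gene tables Pomt1 showed the widest TPM gap of the 7, 0.33 lower in replicate 2 on the log2 scale, while its scaled counts differed by -0.02 (interval -0.21 to 0.16) from 506 and 474 expected counts. The credible intervals deposited for its TPM overlapped, from 6.28 to 8.56 in replicate 1 and from 5.39 to 7.08 in replicate 2. A short model moved with the gap here too. Pomt1-202, 750 bases long and annotated with an incomplete reading frame, was listed with 21.8 expected counts and 1.03 TPM in replicate 1 and with 0 in replicate 2. Without it Pomt1 stood at 5.77 and 5.41 TPM. The second tables put Pomt1-202 at 0 in both libraries and gave a different short model, Pomt1-208 of 805 bases, 22.5% and 14.4% of the gene. The TPM of Pomt1 was also lower in replicate 2 there, at 10.9 and 8.81 TPM, and at 8.46 and 7.54 TPM without Pomt1-208. Its scaled counts there were not lower, with a log2 ratio of 0.05 (interval -0.13 to 0.23).

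The full-length transcript of Pomt1, Pomt1-201 with 2238 coding bases, was at 4.66 and 4.90 TPM. It made up 68.4% of the gene in replicate 1 and 90.6% in replicate 2. Intron-retaining transcripts held 13.7% and 4.75% of Pomt1. Pomt1 shares 4 bases with Uck1 on the opposite strand.

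In Pomt2 the full-length transcript, Pomt2-201 with 2460 coding bases, held 64.6% in replicate 1 and 72.8% in replicate 2, at 1.72 and 2.03 TPM. Pomt2-204, annotated as a target of nonsense-mediated decay (the removal of messages with an early stop), held 24.5% and 16.4%. This is the transcript that keeps the 81-base intron shown above. Its credible intervals overlapped between the libraries, 0.31 to 1.04 TPM and 0.046 to 0.90 TPM. The second tables gave Pomt2-204 a share of 26.6% and 24.3%. They also gave 15.9% and 12.2% to Pomt2-202, a model of 754 bases that keeps an intron and held 6.26% and 5.71% in the first transcript tables. The scaled counts of Pomt2 were 0.21 higher in replicate 2 on the log2 scale (interval -0.0016 to 0.42), from 352 and 388 expected counts, which was the largest ratio among the 7 in expected counts. In the second tables the ratio was 0.18 for Pomt2 and 0.23 for Gmppb. Pomt2 shares 804 bases at its start with Gstz1, on the opposite strand at 20.03 and 20.07 TPM.

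**Figure D3:**
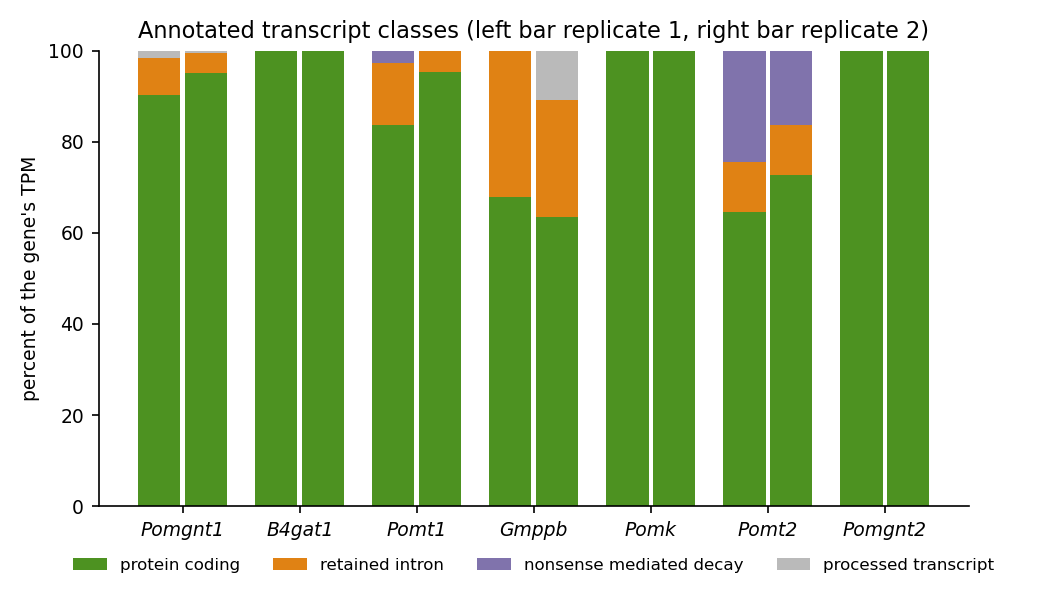
Percent of each enzyme's TPM on transcripts of each annotated class, with replicate 1 as the left bar and replicate 2 as the right bar of each pair. Gmppb carries 32.0% and 25.6% on intron-retaining transcripts and Pomt2 24.5% and 16.4% on transcripts annotated for nonsense-mediated decay, while Pomk, Pomgnt2 and B4gat1 are at 100% protein-coding in both libraries.

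Pomgnt1, which adds N-acetylglucosamine to O-linked mannose on many proteins (chr4:116123840-116159849, plus strand), was the highest of the 7. Its levels were 22.9 and 22.8 TPM in replicates 1 and 2, from 1809 and 1879 expected counts. The libraries were nearly equal in TPM, and the gene made up 44.8% and 45.9% of the sum over the 7 enzymes. It was 2.54 times the next gene, B4gat1, and neither the library values nor the credible intervals of those neighbours overlapped. Its scaled counts were 0.12 higher in replicate 2 on the log2 scale, and it was the 1 enzyme of 7 whose counting interval did not include 0 (0.03 to 0.22). Pomgnt1 also had the most counts of the 7, and the interval narrows as counts rise. Over the 10954 protein-coding nuclear genes averaging at least 100 expected counts, the median absolute log2 ratio was 0.11, so a ratio of this size is ordinary.

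Pomgnt1-203, starting after the GC-rich window shown above, held 89.6% and 90.8% of Pomgnt1 in replicates 1 and 2. Pomgnt1-204, which starts 13.3 kb upstream and has the same 1980 coding bases, held 0.65% and 1.35%. The second tables divided the gene differently, with 68.3% and 66.7% on Pomgnt1-203 and 21.2% and 24.1% on Pomgnt1-204. Counted by coding bases the sources lay closer together. Transcripts with the 1980-base reading frame held 90.3% and 92.2% in the first tables and 89.5% and 90.9% in the second. Pomgnt1-202, without the 99-base exon, was listed with 0 expected counts in replicate 1 and 54.6 in replicate 2. The second tables listed 0 and 38.1 for it. The deposited credible intervals for Pomgnt1-202 overlapped, reaching 1.304 TPM in replicate 1 and running from 0.023 to 2.32 TPM in replicate 2. Lurap1, on the opposite strand at 6.19 and 4.89 TPM, spans the starts of Pomgnt1-204 and Pomgnt1-203.

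Pomgnt2 starts the branch that becomes matriglycan (chr9:121981606-121997110, minus strand). It was the lowest of the 7 in the gene tables, at 2.75 TPM in replicate 1 against 2.43 TPM in replicate 2 (2.59 ± 0.23 SD, n = 2), from 195 and 179 expected counts. The level of Pomgnt1 was 8.81 times as high. The scaled counts differed by -0.05 on the log2 scale (interval -0.35 to 0.25).

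Pomgnt2-201 held 95.8% of Pomgnt2 in replicate 1 and 88.7% in replicate 2, and Pomgnt2-207 was listed at 0 and 11.3%. In the second tables Pomgnt2-201 held 31.7% and 51.7%, Pomgnt2-206 held 59.5% and 7.71%, and Pomgnt2-205, a model of 463 bases, held 0 and 34.7% from 6.25 estimated counts. The 3 transcripts 201, 206 and 207 share the same 1740 coding bases and differ in the exons before them. Without Pomgnt2-205 the gene stood at 3.54 and 3.26 TPM in the second tables, against 3.54 and 5.001 TPM with it.

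Pomk, the kinase of the pathway (chr8:25980604-25994133, minus strand), is the simplest of the genes, with 1 annotated transcript of 3613 bases and no overlapping gene. Replicate 1 gave 3.12 TPM and replicate 2 gave 2.95 TPM (3.04 ± 0.12 SD, n = 2), from 356 and 336 expected counts. Scaled counts differed by -0.01 on the log2 scale (interval -0.23 to 0.21).

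B4gat1, the glucuronyltransferase that primes matriglycan (chr19:5038826-5041131, plus strand), was second in level at 9.13 TPM in replicate 1 against 8.82 TPM in replicate 2 (8.98 ± 0.22 SD, n = 2). Its scaled counts differed by 0.02 on the log2 scale (interval -0.15 to 0.19), from 574.3 and 555.6 expected counts. B4gat1-201 held 96.4% and 96.6%. B4gat1-202, which keeps the only intron and ends its reading frame inside it after 1137 coding bases, held 3.64% and 3.43%. A longer gene on the same strand, AC124502.3, spans 2241 of the bases of B4gat1, and reads there can belong to either. AC124502.3 was at 0.55 and 0.33 TPM in the gene tables and at 2.76 and 2.46 TPM in the second tables, where B4gat1 had 483 and 446 estimated counts.

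The order of the levels in the gene tables was Pomgnt1, B4gat1, Pomt1, Gmppb, Pomk, Pomt2 and Pomgnt2. Between neighbours in that order, the values of the 2 libraries overlapped only for Pomt2 and Pomgnt2. The deposited credible intervals overlapped in at least 1 pair of libraries for every pair of neighbours except Pomgnt1 and B4gat1, so the order below Pomgnt1 is less certain than the library values alone show. In the second tables Pomt2 stood above Pomk and the other 5 kept their places. The second tables gave levels about 1.46 times those of the gene tables at the median of protein-coding genes. After that shift was removed, 0 of the 7 enzymes differed between the tables by more than 0.5 on the log2 scale, against 9.3% of the same protein-coding genes.

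Between the 2 mice most genes lay close together, the enzymes among them. None of the 7 differed by more than 1.5-fold in scaled counts. Of protein-coding nuclear genes averaging at least 100 expected counts, only 1.71% did (187 of 10954), so a count of 0 in 7 does not set the enzymes apart. The log2 ratios of replicate 2 over replicate 1 ran from -0.05 for Pomgnt2 to 0.21 for Pomt2, with 4 above 0 and 3 below, but 3 above 0 when scaled by library totals or spike-in totals, 5 without a filter on low counts for the scaling and 6 in the second tables. Their median was 0.02, as was the median over the 10954 genes. The counting interval included 0 for 6 of the 7, and the share of other genes for which it did is not given.

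**Figure D4:**
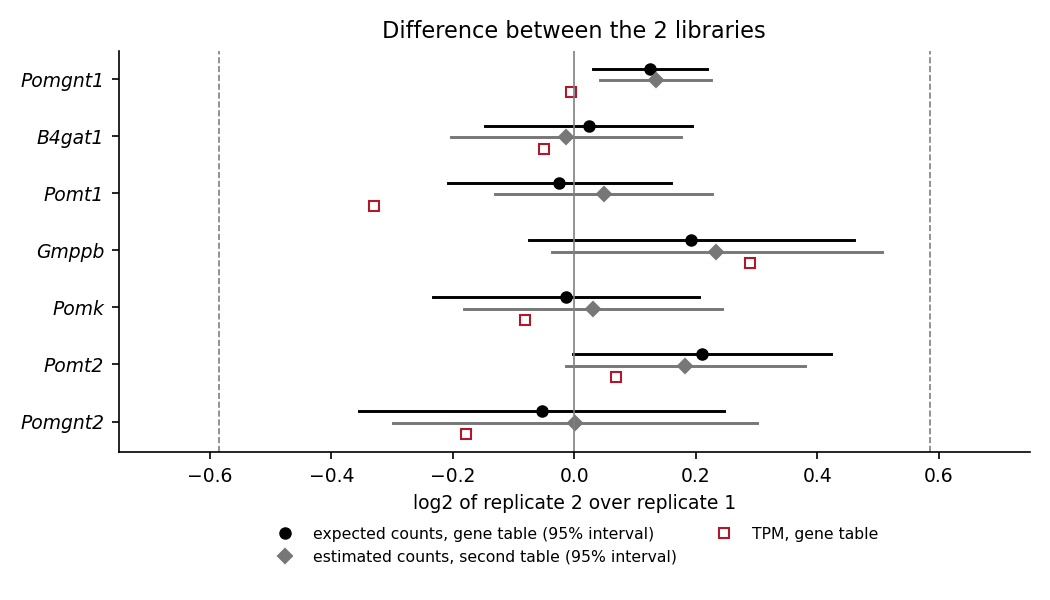
Log2 of replicate 2 over replicate 1 for the 7 enzymes, with black points for scaled expected counts and grey diamonds for scaled counts of the second tables, each with its 95% interval of counting error, open red squares for the TPM of the gene tables, and dashed lines at 1.5-fold. Ratios of expected counts lie between -0.05 and 0.21 and those of the second tables between -0.01 and 0.23, and the TPM of Pomt1 stands apart from its counts at -0.33.

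The rest of the pathway was described from lists of its other steps. Of the 7 genes of the ribitol phosphate, xylose and matriglycan steps, 6 were detected, with medians of 9.91 and 9.07 TPM over the list. Rxylt1, which adds the xylose, was highest at 16.8 and 14.2 TPM. Large2, which can extend matriglycan, was lowest at 0.17 and 0.21 TPM, from 4 expected counts in each library. None of the 6 that could be compared was over 1.5-fold apart between the libraries.

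The supply of the mannose donor was represented by 12 genes, all detected, with medians of 8.70 and 9.21 TPM. Mpi, which makes mannose 6-phosphate from fructose 6-phosphate, was highest at 41.2 and 41.6 TPM. Srd5a3, a reductase of dolichol synthesis, was lowest at 3.82 and 3.29 TPM. Gmppb, at 3.64 and 4.45 TPM, lay near the low end of these values, and its regulatory relative Gmppa had 15.1 and 13.0 TPM. The 7 genes for other sugar donors were all detected too, from Ugp2, which makes UDP-glucose, at 130.1 and 128 TPM to Cant1, a nucleotidase of the Golgi, at 5.56 and 5.74 TPM. In neither list was a gene over 1.5-fold apart.

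Of 10 genes for other O-mannose modifications, 7 were detected. Tmtc1, an O-mannosyltransferase that acts on cadherins, was highest at 25.0 and 21.2 TPM. B3gat2, a glucuronyltransferase of the HNK-1 epitope, was listed at 0 counts in both libraries. Chst10, the sulfotransferase of that epitope, had 47 and 25 expected counts, a log2 ratio of -0.83 (interval -1.60 to -0.11), and was the 1 of 8 compared that was over 1.5-fold apart. The share of genes over 1.5-fold given above is for a mean of at least 100 expected counts, which Chst10 did not reach.

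The 15 listed ligands and partners of dystroglycan had medians of 42.1 and 35.9 TPM, and Dag1 was the highest of them. The neuron markers moved the same way as Chst10. Syt1 had 70 expected counts in replicate 1 and 0 in replicate 2, and Snap25 had 20 and 0. The summed Schwann cell markers were also lower in replicate 2, at 273 against 335 TPM. Their part in the values of Chst10 was not tested.

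**Figure D5:**
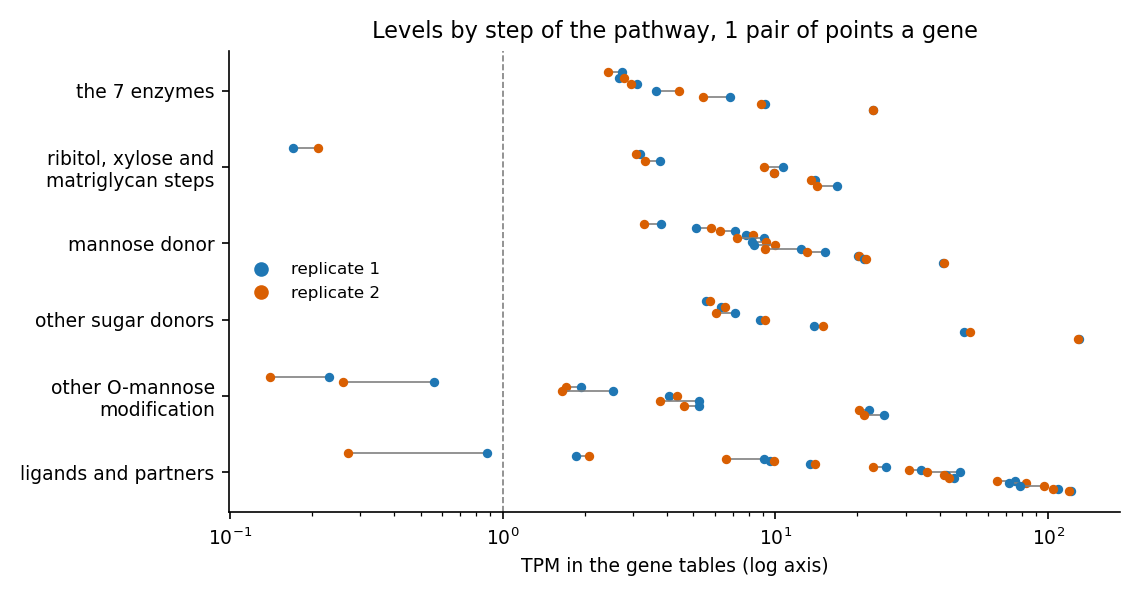
TPM in the gene tables on a log axis for the 7 enzymes and for 5 lists of other genes of the pathway, with blue points for replicate 1, orange points for replicate 2, a line joining the 2 values of a gene and a dashed line at 1 TPM. B3gat2, at 0 in both libraries, is not drawn. The enzymes span 2.43 to 22.9 TPM, and the highest gene of the mannose donor list, Mpi, stands at 41.2 and 41.6 TPM.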

How the data were processed

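Total RNA was measured in 2 libraries, the only group. The authors quantified each library on mm10 with GENCODE M21 and did not pool replicates, per the file headers and the notes beside them. The deposited gene and transcript tables, laid out as RSEM writes them, hold expected counts, TPM, credible bounds of TPM whose level is not stated, and the percent of a gene's TPM on each transcript. The deposited second transcript tables, laid out as kallisto writes them, hold estimated counts (37386161 and 36335649 in all) and TPM, and were summed per gene here. Aligner, versions and strand setting: not given in the sources used here.

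Expected counts were rounded and scaled with TMM (edgeR 4.0.16, R 4.3.3) over endogenous genes averaging at least 10 counts. Spike-ins and features that name no gene were left out. Log2 ratios used a prior count of 0.5. The 95% intervals are exact binomial intervals on the 2 counts of a gene, so they cover counting error only and not the spread between mice. PCR copies were not marked, so the intervals can be too narrow even for counting error. The ratio and its interval were tested on simulated counts that held counting noise only. That test does not show how the intervals behave with the spread between mice. The libraries differed by more than sampling noise (chi-square of 25.5 per degree of freedom over 11488 genes), so they are not copies of 1 set of counts. They were kept as 2 samples because the labels call them biological replicates with different animal numbers. List genes were compared from a mean expected count of 20. The comparison of tables added 0.1 TPM to each level. Other steps ran in Python 3.11.15 with scipy 1.17.1, numpy 2.4.6 and pandas 2.3.3.

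RefSeq windows matched 5 of the 7 symbols. Named are the 7 enzymes, their transcripts at 10% or more of the gene in either source, Dag1, and the highest, lowest and over 1.5-fold genes of each list, apart from list genes that are not reported here. Transcripts under 10%, overlapping genes, Gmppa, the partners in the closing section and the markers Acta1, Ckm, Syt1 and Snap25 were named after their values were seen. The members and lists were chosen with earlier results of these data known. Alternatives covered the second tables, posterior means, rescaled TPM, scaling by spike-in totals, library totals or DESeq2 1.42.0 size factors, the prior count, thresholds and leaving out each replicate.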

Additional observations from a re-analysis of the deposited data

How the results depend on the processing

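Of the 32 alternatives to the 5 summary results, 27 stayed within the replicate spread, the counting interval or 1.5 times the count. Some of these could not have moved, so the tally overstates how stable the results are. They are detection at 0.5 TPM, the 2-fold threshold, and detection and summed TPM with a replicate left out. All 7 enzymes passed 0.5 TPM and 3 passed 5 TPM in both libraries. The summed TPM of the enzymes was 72.1 in the second tables, 51.9 with posterior mean TPM and 114 with TPM rescaled to nuclear protein-coding genes, and 49.6 to 51.0 when each replicate was left out. The median share of the leading transcript was 90.2%, 67.2% in the second tables, and 89.6% to 90.6% when each replicate was left out. The count over 1.5-fold stayed at 0 under 7 settings of scaling, table and prior count, and was also 0 at 1.2-fold and at 2-fold. The median log2 ratio ran from -0.02 with library totals to 0.07 for the mean in place of the median, so its sign is not settled. The summed counts of the 7 gave a log2 ratio of 0.08 in the main setting, with an interval of counting error from 0.02 to 0.15. Of those 4017 and 4057 counts, Pomgnt1 alone held 1809 and 1879. Counts of 179 to 574 for 6 of the enzymes leave intervals too wide to show differences of the size seen here. No paired analysis was possible because there is 1 group and no contrast.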

Other observations

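The substrate gene Dag1 (chr9:108204634-108263958, minus strand) had 7 annotated transcripts, of which Dag1-204 led with 63.3% of the TPM in each library. Dag1-201, Dag1-202, Dag1-203 and Dag1-204 each have 2679 coding bases and differ in the exons around them. Dag1-203 held 12.5% and 13.4% and Dag1-201 held 11.3% and 13.4% in replicates 1 and 2. The second tables listed Dag1-201 at close to 0 counts and gave Dag1-203 a share of 25.6% and 24.6%. Dag1-207, a model of 509 bases with an incomplete reading frame, held 9.13% and 7.58% in the first tables, from 148 and 120 expected counts out of 18178 and 18203 for the gene. In the second tables it held 18.2% and 24.1%, from 167 and 232 estimated counts out of 19041 and 18902. As with Pomt1, Gmppb and Pomgnt2, a small number of counts on a short model carried a much larger share of the TPM than of the counts.

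Among the partners of dystroglycan, the transmembrane sarcoglycan Sgca was higher in replicate 2, with a log2 ratio of 0.20 (interval 0.13 to 0.28). Dmd, the gene of dystrophin, was lower in replicate 2 at -0.20 (interval -0.24 to -0.17), and Lama2, the main laminin chain of the muscle basement membrane, at -0.13 (interval -0.17 to -0.10). These intervals cover counting error only, and none of these 3 genes was over 1.5-fold apart.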
